A study of Mus musculus with 19 samples.

Results

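The genes described here are 9 that build the first epithelium of the mouse embryo: Cdh1, Ezr, Pard6b, Tjp1, F11r, Ocln, Cldn4, Cldn6 and Cldn7. They were chosen by name from the 53379 gene rows of the deposited table, and all 9 were found there once each. PolyA RNA was sequenced from 19 single embryos, 1 per library, all fertilised in vitro, cultured in KSOM medium at 37°C under 5% CO2 and collected at 96 hours post insemination (hpi). The strain label of every embryo is B6D2F1, a hybrid of the C57BL/6 and DBA/2 strains. Parents were heterozygous for a deletion of Alyref, of Gabpb1, or were wild type (WT).

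From the Alyref+/- x Alyref+/- cross came 5 morulae, of which 2 are Alyref KO, and 3 blastocysts that are non-KO. From the Gabpb1+/- x Gabpb1+/- cross came 5 morulae, of which 3 carry the label Gabpb1 KO, and likewise 3 blastocysts that are non-KO. The WT control holds 3 blastocysts. Non-KO embryos are WT or heterozygous, and the submitters named an embryo KO where its own library held no reads over the deleted region. Every KO embryo is a morula, and anything that was handled separately for each cross cannot be told apart from the cross. Nothing in the labels says from how many parents the embryos came, so p-values measure the spread between these embryos. In whole-embryo RNA, fewer cells of a type and less RNA per cell cannot be told apart.

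At compaction the blastomeres of the mouse embryo flatten against each other through E-cadherin, the product of Cdh1. The outer cells then become polarised, with ezrin (Ezr) under the apical membrane and PARD6B as part of the apical PAR complex. Tight junctions follow at the border of the apical domain: claudins, occludin (Ocln) and the adhesion molecule JAM-A (F11r) in the membrane, and the scaffold ZO-1 (Tjp1) beneath it. They seal the trophectoderm, the outer epithelium, so that fluid can collect in the blastocoel. ALYREF is an adaptor for export of mRNA from the nucleus, and GABPB1 is a subunit of the ETS-family transcription factor GABP.

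Libraries held 7486125 to 31536282 gene counts, and the counts of the 9 genes ran from 22 to 20060 per embryo. Levels are given as CPM, the gene's count scaled to a common library size, with TMM factors for library composition. Alyref stood at 47.8 and 58.5 CPM in its 2 KO morulae and at 162 to 291 CPM in the 3 non-KO morulae of the cross. Gabpb1 was not lower under its KO label: it stood at 78.1, 259 and 150 CPM in the 3 morulae labelled Gabpb1 KO and at 93.8 and 83.2 CPM in the 2 non-KO morulae. Counts per gene include exons outside a deletion, so the deleted region itself was not examined here. The summed level of 11 trophectoderm markers was 5023 to 8161 CPM in the 9 blastocysts and 376 to 4829 CPM in the 10 morulae, without overlap. Summed markers of cumulus cells stayed between 4.26 and 24.1 CPM and those of sperm between 0.09 and 2.15 CPM.

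All 9 are protein-coding genes, given here with their GRCm38 positions. Cdh1 lies at chr8:106603351-106670246, Ezr at chr17:6738041-6782784, Pard6b at chr2:168081004-168101203 and Tjp1 at chr7:65296165-65527781. F11r lies at chr1:171437535-171464603 and Ocln at chr13:100496507-100552718. The claudin genes lie at chr5:134945119-134946934 (Cldn4), chr17:23679365-23682446 (Cldn6) and chr11:69964779-69967885 (Cldn7).

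Promoter sequences are shown for 4 of the genes, the 3 claudins and Ezr. The genes that passed the edgeR test between groups of morulae, Cldn4 and Cldn7, are claudins. F11r, Tjp1 and Ezr also separated without overlap between some of these groups. Ezr was picked because it, like Cldn7, holds the ETS core that GABP is known to bind. A match is a description of the sequence, and neither binding by GABP nor its part in any difference was tested. Each line gives the 250 bases upstream of a RefSeq transcript start in GRCm38.p6, read 5′ to 3′ on the strand of the gene. Capitals mark CCGGAAG, the ETS core, or GGAATG, the TEAD core, on either strand where the match lies wholly within these bases. The GGAATG match of Cldn6, on the other strand, begins 1 base before the start and is not marked. The Cldn4 stretch is chr5:134946935-134947184 on the minus strand, and the Cldn6 stretch is chr17:23679115-23679364 on the plus strand. The Cldn7 stretch is chr11:69964529-69964778 on the plus strand, and the Ezr stretch is chr17:6782781-6783030 on the minus strand.
Cldn4: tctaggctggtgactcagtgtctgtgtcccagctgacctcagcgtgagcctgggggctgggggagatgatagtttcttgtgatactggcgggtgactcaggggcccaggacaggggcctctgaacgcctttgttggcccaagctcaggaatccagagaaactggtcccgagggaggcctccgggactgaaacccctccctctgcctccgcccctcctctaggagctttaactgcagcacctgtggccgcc
Cldn6: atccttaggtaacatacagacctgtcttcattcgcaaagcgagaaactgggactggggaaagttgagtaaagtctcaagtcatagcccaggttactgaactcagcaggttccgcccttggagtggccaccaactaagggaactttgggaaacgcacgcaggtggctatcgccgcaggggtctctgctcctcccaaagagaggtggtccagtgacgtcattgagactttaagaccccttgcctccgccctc
Cldn7: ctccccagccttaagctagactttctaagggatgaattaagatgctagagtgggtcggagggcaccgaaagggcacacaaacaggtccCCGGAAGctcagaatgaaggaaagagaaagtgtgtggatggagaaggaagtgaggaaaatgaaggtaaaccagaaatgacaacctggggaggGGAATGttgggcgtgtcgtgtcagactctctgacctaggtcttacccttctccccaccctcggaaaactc
Ezr: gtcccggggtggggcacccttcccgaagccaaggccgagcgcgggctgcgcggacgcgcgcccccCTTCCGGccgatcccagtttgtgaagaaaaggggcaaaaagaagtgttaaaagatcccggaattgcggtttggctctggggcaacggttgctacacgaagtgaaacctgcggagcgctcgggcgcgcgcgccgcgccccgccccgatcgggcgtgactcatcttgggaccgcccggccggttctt

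The ETS core lay 162 bases before this start of Cldn7 and, on the other strand, 185 bases before the start of Ezr. The TEAD core lay 70 bases before the start of Cldn7. Windows of 250 bases before to 50 bases after a start were searched for 8 of the 9 genes, 10 windows in all; Cdh1 had no entry. CCGGAAG was found in 3 of the 10 windows, in both of Cldn7 and in that of Ezr, against 8.86% of the 32851 windows of all genes. GGAATG was found in 2 windows, of Cldn7 and Cldn6, against 14.7% of all windows. GCCNNNGGC, the TFAP2 core, was found in 4 windows, of F11r, Pard6b, Tjp1 and Ocln, against 16.6% of all windows. None of the 3 motifs overlap each other in these windows, and the Cldn4 window held none of them.

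In WT blastocysts Cldn7 and Cldn4 were the most abundant of the group. Per kilobase of exon, Cldn7 stood at 249 ± 19.7 and Cldn4 at 234 ± 43.2 CPM per kb (SD, n = 3), and these neighbours in the order did not differ beyond their spread. F11r followed at 87.3 ± 9.48, Cdh1 at 50.4 ± 14.4, Ezr at 38.2 ± 6.08 and Cldn6 at 31.6 ± 6.57 CPM per kb. Pard6b stood at 10.3 ± 1.79, Ocln at 9.52 ± 1.22 and Tjp1, with the longest exons in sum, at 5.73 ± 2.06 CPM per kb. Of the neighbours in this order, Ezr and Cldn6 overlapped within 1 SD, as did Cdh1 and Ezr, and Pard6b and Ocln. Over the 9 blastocysts the coefficient of variation ran from 14.2% (Cldn4) to 50.1% (Pard6b), and over the 10 morulae from 27.6% (F11r) to 150% (Cldn6).

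**Figure D1:**
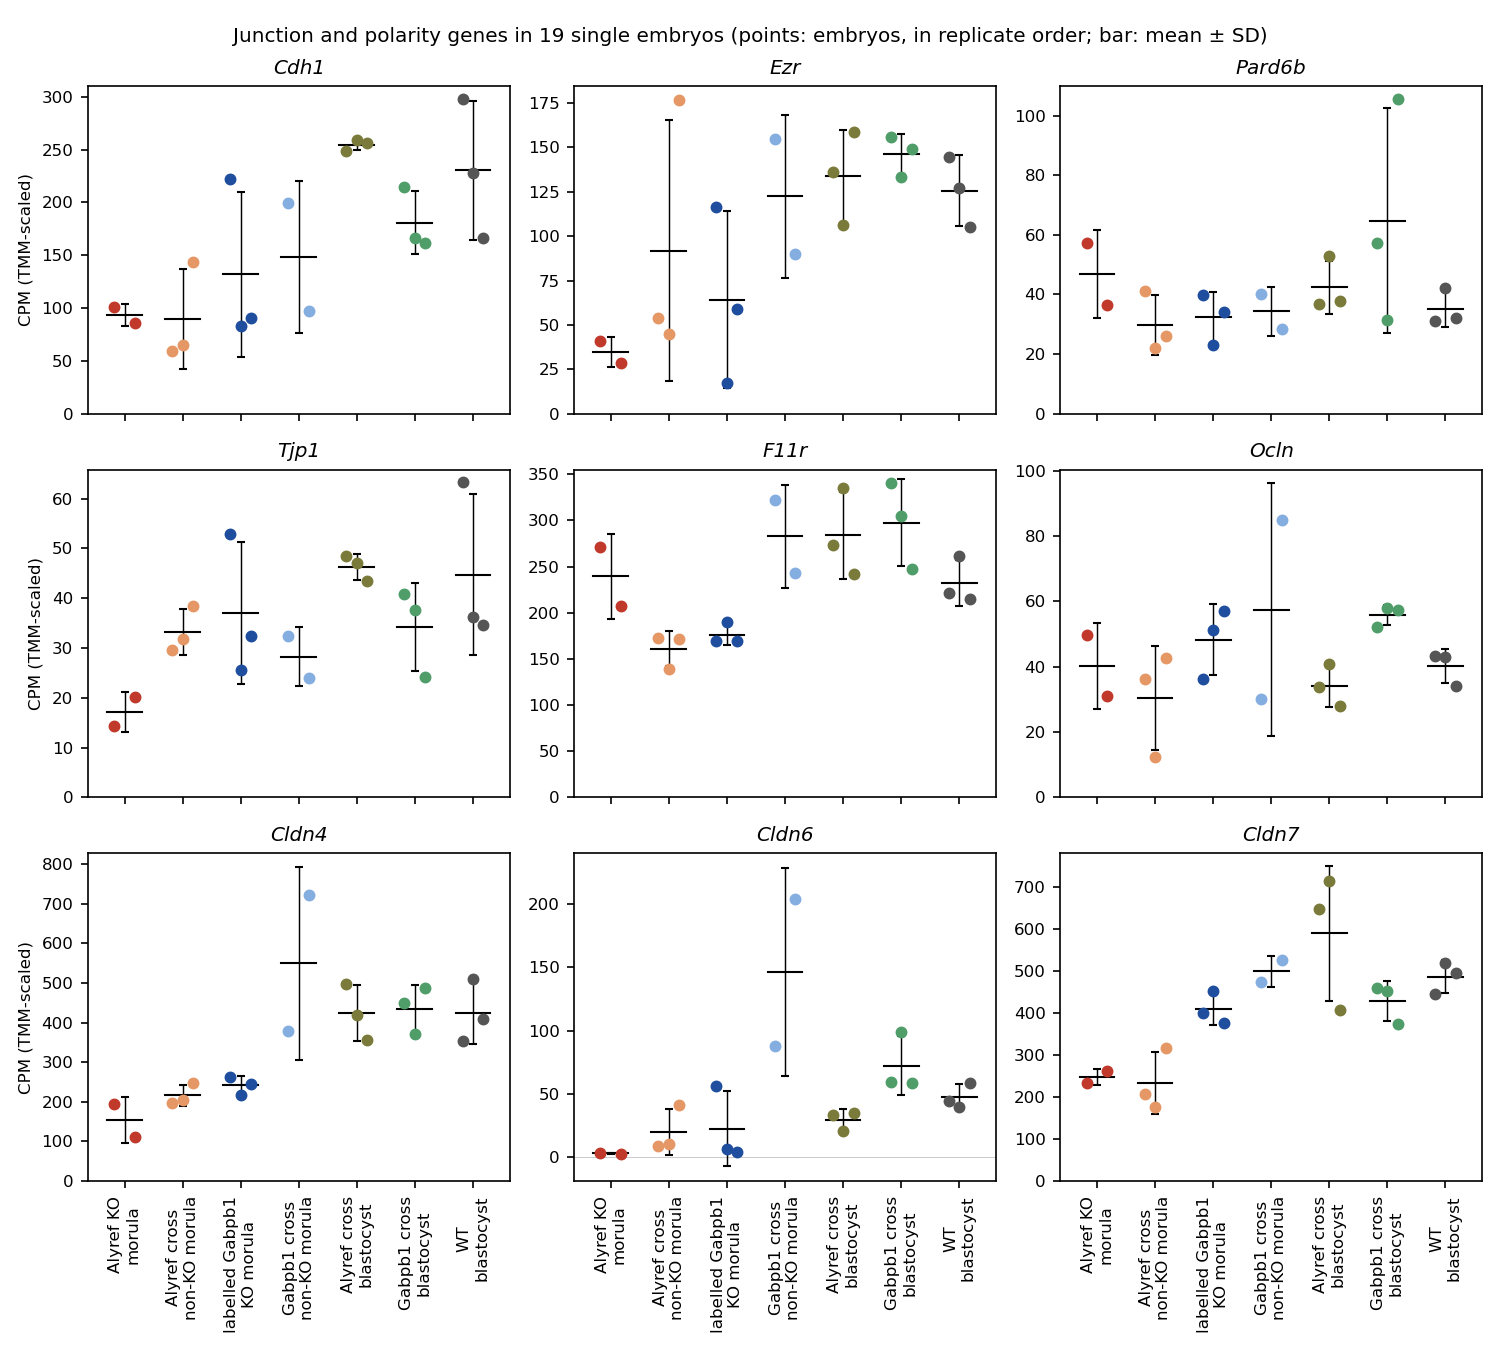
CPM of each of the 9 genes (linear y axes from each gene's own range) in the 7 groups; points are embryos, and bars are the mean with SD. Cldn6 runs from 2.8 to 204 CPM in the morulae, while Cldn4 lies between 355 and 510 CPM in all 9 blastocysts.

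The first comparison set the 2 Alyref KO morulae against the 3 non-KO morulae of their cross. Other non-KO embryos of the cross were blastocysts at the same 96 hpi. Whether the non-KO morulae were delayed was not tested. In the Alyref KO morulae 4 of the 9 genes had lower values and 1 had higher values than in any of the 3 non-KO morulae, but no difference passed the test. The 4 were Cldn6, Ezr, Tjp1 and Cldn4, and the 1 was F11r. Of all 18410 genes tested, 12.4% were lower and 12.5% higher without overlap in the same comparison.

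Cldn6, a claudin of early embryonic epithelia, stood at 2.9 and 2.8 CPM in the Alyref KO morulae, from 22 and 42 counts. The non-KO morulae of the cross stood at 8.59, 10.1 and 40.8 CPM. Both KO embryos were thus below every other embryo of the study, and non-KO morula 3 was well above the other non-KO morulae. The fitted log2 fold change was -2.80 (SE 1.00), with an edgeR adjusted p of 0.254, and without non-KO morula 3 it was -1.71.

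Ezr, the linker between the apical membrane and actin, stood at 40.9 and 28.7 CPM in the KO morulae and at 53.7, 45.0 and 176 CPM in the non-KO morulae. Here too non-KO morula 3 was the high embryo, and the other 4 lay within a range of 28.7 to 53.7 CPM. The fitted difference was -1.40 on the log2 scale (SE 0.64, adjusted p 0.391), and -0.50 without that embryo.

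Tjp1, the ZO-1 scaffold, showed the tighter separation. It stood at 14.4 and 20.1 CPM in the KO morulae and at 29.5, 31.9 and 38.4 CPM in the non-KO morulae. The KO values were the lowest of all 19 embryos. On the log2 scale the KO morulae were at -0.94 relative to the non-KO morulae (SE 0.35, adjusted p 0.276). Cldn4 stood at 194 and 112 CPM against 197, 205 and 248 CPM, so that KO morula 1 lay just under the lowest non-KO embryo (log2 fold change -0.50, SE 0.28, adjusted p 0.521).

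F11r, the JAM-A adhesion molecule, differed in the other direction. It stood at 272 and 207 CPM in the KO morulae and at 173, 139 and 171 CPM in the non-KO morulae. The log2 difference came to 0.57 (SE 0.20, adjusted p 0.254). The remaining 4 genes overlapped: Cdh1 (0.06, SE 0.44), Cldn7 (0.09, SE 0.25), Ocln (0.40, SE 0.45) and Pard6b (0.65, SE 0.42) on the log2 scale.

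By edgeR 0 of the 9 genes was called at an adjusted p under 0.05, where 0.228% of all genes were. At an unadjusted p under 0.05 there were 4, namely Cldn6, Ezr and Tjp1 lower and F11r higher, against 12.1% of all genes; DESeq2 and limma-voom called none of the 9. The median log2 fold change of the 9 was 0.06, beside -0.04 for all genes tested. The trophectoderm marker sum was 756 and 1668 CPM in the KO morulae and 658 to 2331 CPM in the non-KO morulae, with the highest value in non-KO morula 3, and its part in these differences was not tested.

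The second comparison set the 3 morulae labelled Gabpb1 KO against the 2 non-KO morulae of their cross. Here too, other non-KO embryos of the cross were blastocysts at the same age, and a delay of the non-KO morulae was not tested. Cldn4, a claudin of tight epithelia, was the 1 gene that passed the test, 2.27-fold lower in the embryos with the KO label. Cldn6, F11r and Cldn7 were also lower without overlap, and none of the 9 was higher without overlap. Of all genes, 1.30% were called lower, and 16.4% were lower without overlap.

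Cldn4 stood at 263, 217 and 244 CPM in the morulae labelled Gabpb1 KO and at 378 and 721 CPM in the non-KO morulae. The labelled embryos sat close together, and non-KO morula 2 was the highest of all 19 embryos. Alyref cross non-KO morulae stood at 197, 205 and 248 CPM, near the labelled embryos. Against them the Gabpb1 cross non-KO morulae were called higher, and the part of this in the KO difference was not tested. Between the labelled and non-KO morulae of the Gabpb1 cross, the log2 fold change was -1.18 (SE 0.28, edgeR adjusted p 0.0446). Over the 12 alternative analyses it stayed negative, from -1.58 to -0.64, with adjusted p from 0.00299 to 0.443. The call was lost without non-KO morula 2 (-0.64, adjusted p 0.443), without labelled embryo 2 (0.105) or 3 (0.0842), with only these 2 groups in the fit (0.327), and with limma-voom (0.0661), spike-in scaling (0.393) or a replicate block (0.0622).

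Cldn6 stood at 56.5, 6.48 and 4.18 CPM in the labelled morulae and at 87.8 and 204 CPM in the non-KO morulae. Labelled embryo 1 lay far above the other 2 and nearer to the non-KO embryos. The estimated log2 change was -2.70 (SE 0.85, adjusted p 0.110). Without labelled embryo 1 it was -4.78 and passed the test (adjusted p 0.00439), as it did with limma-voom, which weights embryos by quality (-4.09, adjusted p 0.0183). In others of its 12 alternatives Cldn6 did not pass.

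F11r stood at 170, 190 and 170 CPM in the labelled morulae and at 322 and 243 CPM in the non-KO morulae. The labelled embryos were again close together and below both others. The estimated log2 change was -0.68 (SE 0.20, adjusted p 0.0955), and DESeq2 called it (-0.70, adjusted p 0.0215). In others of its 12 alternatives F11r was not called. Cldn7, which seals the tight junctions of many epithelia, stood at 398, 452 and 377 CPM against 473 and 525 CPM, a small separation (log2 fold change -0.29, SE 0.25).

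Ezr stood at 116, 17.4 and 59.0 CPM in the labelled morulae and at 155 and 89.8 CPM in the non-KO morulae. Cdh1 stood at 222, 82.9 and 90.9 CPM against 199 and 97.3 CPM. In both genes labelled embryo 1 lay within or above the non-KO range and the other 2 lay below it. The log2 fold changes were -0.93 (SE 0.60) for Ezr and -0.17 (SE 0.44) for Cdh1, and Cdh1 turned to -0.77 without labelled embryo 1.

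For Tjp1 (0.39, SE 0.34), Ocln (-0.25, SE 0.44) and Pard6b (-0.09, SE 0.42) the groups overlapped. The median log2 fold change of the 9 genes was -0.29, beside 0.06 for all genes tested. The trophectoderm marker sum was 3171, 376 and 1213 CPM in labelled embryos 1 to 3 and 4829 and 3168 CPM in the non-KO morulae. It followed the order of Cldn6, Ezr and Cdh1 in that labelled embryo 1 had the highest value of the 3, and its part in the differences was not tested.

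**Figure D2:**
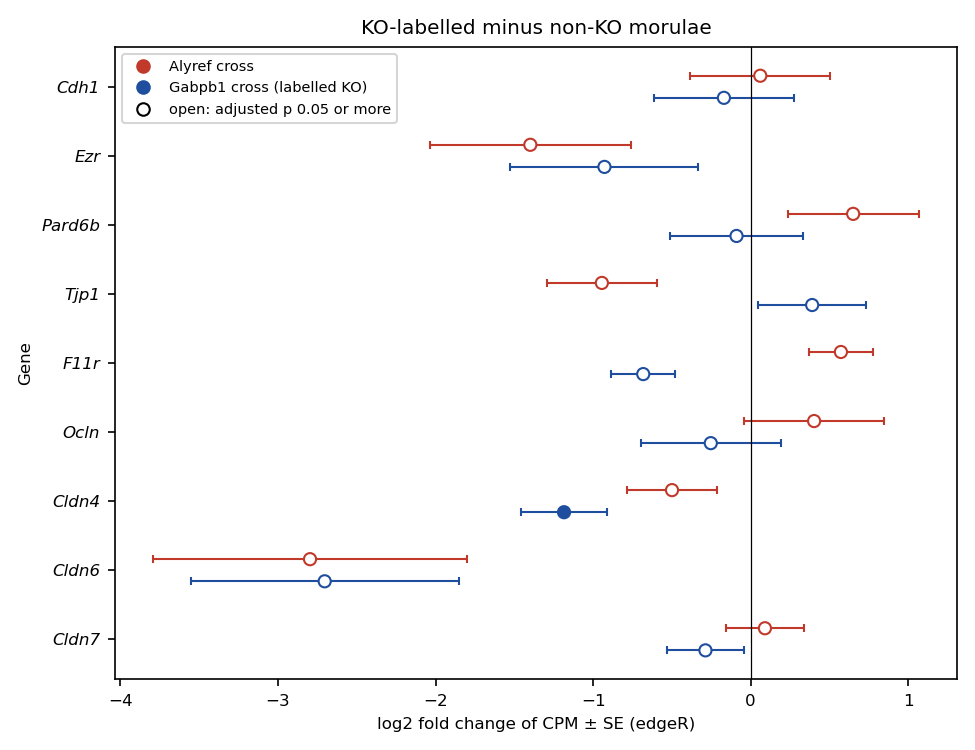
Log2 fold change of CPM with its SE (edgeR) for each gene in both KO comparisons, KO minus non-KO morulae of the same cross; filled points passed an adjusted p under 0.05. Cldn4 in the Gabpb1 cross (-1.18) is the filled point, and F11r lies at 0.57 in the Alyref cross and at -0.68 in the Gabpb1 cross.

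The difference between both KO effects was tested as a contrast of the 4 morula groups, none of which is shared. F11r differed most clearly: its effect was 1.25 lower on the log2 scale in the Gabpb1 cross (log2 difference -1.25, SE 0.29), with an adjusted p of 0.0539 that just missed the threshold. The F11r difference passed with RLE size factors (adjusted p 0.0451), DESeq2 (0.00194), without Alyref cross non-KO morula 3 (0.0339) and without labelled Gabpb1 KO embryo 1 (0.0495). It kept its sign in all 17 alternatives but did not pass in others, with an adjusted p of up to 0.881. Tjp1 differed by 1.33 in the other direction (SE 0.49, adjusted p 0.192). By edgeR 0 of the 9 genes passed, where 0.907% of all genes did, and 2 of the 9 had an unadjusted p under 0.05, beside 16.9% of all genes. For Cldn4 the interval of 2 SE around the difference was -1.47 to 0.10, so a difference of that size between the crosses could not be told from none at this number of embryos.

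The next comparison set non-KO blastocysts against non-KO morulae of the same cross. Every embryo was collected at the same time after insemination. The stages are thus different embryos of the same age, and not a course over time. Whether the morulae were delayed was not tested. In the Alyref cross 4 of the 9 genes were called higher in the blastocysts: Cdh1, Cldn7, Cldn4 and F11r. They were higher by 2.84-fold, 2.53-fold, 1.96-fold and 1.76-fold, and 5.62% of all genes were called higher. Together with Tjp1, 5 of the 9 were higher in all 3 blastocysts than in all 3 morulae, as were 19.6% of all genes.

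Cdh1, which encodes E-cadherin, stood at 59.7, 65.3 and 144 CPM in the morulae and at 249, 259 and 256 CPM in the blastocysts. The blastocysts had an SD of 5.28 CPM, while morula 3 was above the other 2 (log2 fold change 1.51, SE 0.40, adjusted p 0.0273). Cldn7 stood at 207, 177 and 315 CPM in the morulae and at 647, 712 and 408 CPM in the blastocysts. It had the smallest adjusted p of the 9 (log2 fold change 1.34, SE 0.22, adjusted p 0.00759). Blastocyst 3 was the lowest of the blastocysts, and still above all morulae of the cross.

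Cldn4 stood at 197, 205 and 248 CPM in the morulae and at 498, 419 and 355 CPM in the blastocysts (log2 fold change 0.97, SE 0.25, adjusted p 0.0244). F11r stood at 173, 139 and 171 CPM in the morulae and at 274, 336 and 242 CPM in the blastocysts (0.82, SE 0.19, adjusted p 0.0147). For both claudins and F11r the stages were separate. Tjp1 stood at 29.5, 31.9 and 38.4 CPM against 48.5, 47.1 and 43.4 CPM, a separation that did not pass the test (0.48, SE 0.30, adjusted p 0.298).

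Cldn6, Ocln, Pard6b and Ezr overlapped between the stages, with log2 fold changes of 0.58, 0.17, 0.51 and 0.54. The median of the 9 was 0.58, beside -0.04 for all genes; with spike-in scaling, which moved the median of all genes to -0.34, Cldn6, Ocln and Ezr lay below 0. The calls of the 4 genes rest on the pooled spread: with only the 2 groups in the fit the adjusted p were 0.0529 to 0.0661, and with spike-in scaling they were 0.498 to 0.763. Leaving out any 1 embryo kept Cldn7 called in all 6 cases; Cdh1 was lost in 5 of them (adjusted p 0.0629 to 0.118), all but the one without morula 3. Cldn4 was lost without morula 1 or 2 or blastocyst 1 or 2 (adjusted p 0.0720 to 0.0943), and F11r without morula 2 or blastocyst 1 or 2 (0.0518 to 0.0747).

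The same comparison in the Gabpb1 cross gave 0 called genes among the 9 and 0 among all 18410 genes by edgeR (0% of them). There 1237 genes but none of the 9 had an unadjusted p under 0.05. DESeq2 and limma-voom called none of the 9. Cldn7 was lower in all 3 blastocysts (460, 451 and 375 CPM) than in the 2 morulae (473 and 525 CPM), with a log2 fold change of -0.22 (SE 0.25); 11.6% of all genes were lower without overlap. Pard6b had the largest positive value, 0.91 (SE 0.43, adjusted p 0.746), at 40.2 and 28.5 CPM in the morulae and 57.3, 31.4 and 106 CPM in the blastocysts. Blastocyst 3 carried much of it. Cdh1 stood at 215, 167 and 161 CPM in these blastocysts, within the range of 97.3 to 199 CPM of the morulae save for blastocyst 1 (0.28, SE 0.45).

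**Figure D3:**
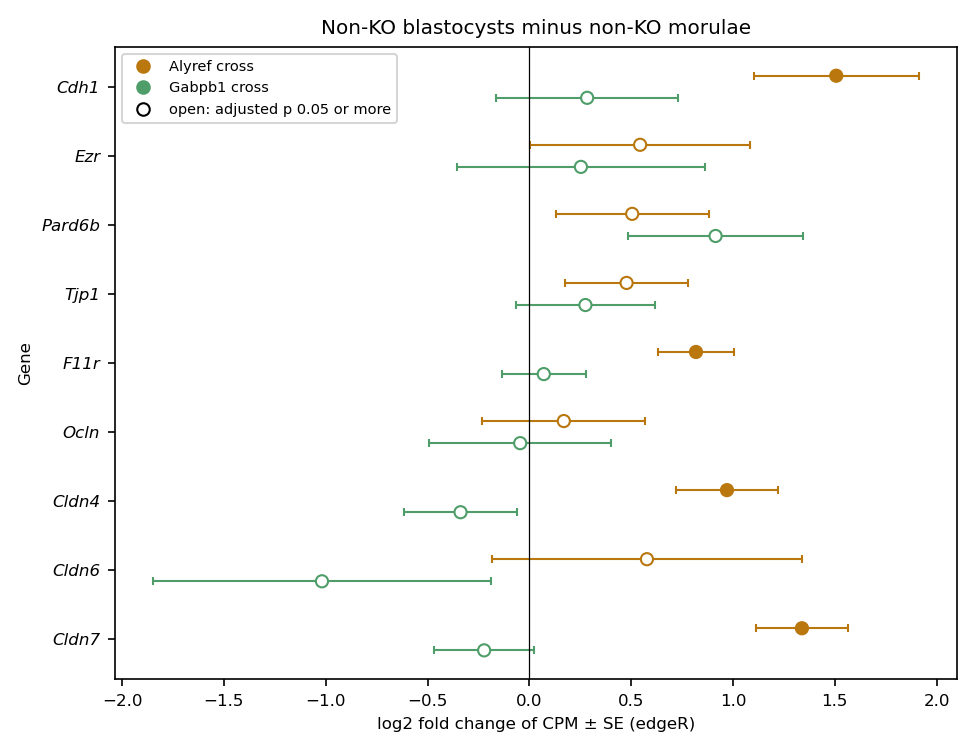
Log2 fold change of CPM with its SE (edgeR), non-KO blastocysts minus non-KO morulae, for each gene in the 2 crosses; filled points passed an adjusted p under 0.05. All 9 values of the Alyref cross lie above 0 with TMM scaling (Cldn6, Ocln and Ezr lie below 0 with spike-in scaling), and the claudins of the Gabpb1 cross lie below 0.

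The mean of both crosses gave 0 calls by edgeR, where 4.36% of all genes were called. At an unadjusted p under 0.05 there were 4, beside 24.5% of all genes, and the smallest adjusted p were 0.0631 for Cldn7 (log2 fold change 0.56, SE 0.17), 0.0716 for F11r (0.44, SE 0.14) and 0.0880 for Cdh1 (0.90, SE 0.30). These 3 were called by DESeq2, by limma-voom and without Alyref cross non-KO morula 3. Each was not called in others of its 18 alternatives.

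The difference between blastocysts and non-KO morulae was also compared between the crosses. The estimate was lower in the Gabpb1 cross for 8 of the 9 genes, all but Pard6b. By edgeR 0 of the 9 passed, where 0.00543% of all genes did, and 3 had an unadjusted p under 0.05, beside 13.8% of all genes. Cldn7 differed by -1.56 (SE 0.33, adjusted p 0.165), Cldn4 by -1.31 (SE 0.37, adjusted p 0.213) and F11r by -0.75 (SE 0.28, adjusted p 0.277). DESeq2 called Cldn7 and Cldn4, limma-voom called Cldn7, Cldn4 and Cldn6, and edgeR, without Alyref cross non-KO morula 3, called Cldn7 (adjusted p 0.00909). Cldn7 and Cldn4 were not called in others of their 18 alternatives.

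The 2 groups of non-KO morulae, WT or heterozygous for one gene or the other, were compared next. Cldn4 was 2.54-fold and Cldn7 2.14-fold higher in the Gabpb1 cross, and both passed the test (adjusted p 0.0334 and 0.0381); 1.18% of all genes were called higher. Cldn6 and F11r were also higher without overlap, at log2 fold changes of 2.88 (SE 0.85, adjusted p 0.0808) and 0.82 (SE 0.20, adjusted p 0.0519). F11r was called with RLE size factors (adjusted p 0.0468), DESeq2 (0.00322), limma-voom (0.0314) and without Alyref cross morula 3 (0.0263). It was not called in others of its 12 alternatives. In all, 4 of the 9 genes were higher without overlap, beside 17.9% of all genes, and the median of the 9 was 0.82, beside -0.03 for all genes.

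These 4 genes separated as follows. Cldn4 stood at 378 and 721 CPM in the Gabpb1 cross and at 197 to 248 CPM in the Alyref cross, and Cldn7 at 473 and 525 CPM against 177 to 315 CPM. Cldn6 stood at 87.8 and 204 CPM against 8.59 to 40.8 CPM, and F11r at 322 and 243 CPM against 139 to 173 CPM. The trophectoderm marker sum was higher in the same 2 embryos, 4829 and 3168 CPM against 658 to 2331 CPM. The summed level of 7 markers of the inner cell mass and epiblast was lower in them, 400 and 214 CPM against 618 to 732 CPM. The part of either sum in the difference was not tested. Both calls were lost without Alyref cross morula 1 or 2, without Gabpb1 cross morula 2, with only the 2 groups in the fit and with spike-in scaling. Cldn7 was also lost without Gabpb1 cross morula 1 (adjusted p 0.0909) and with the replicate block (0.0580).

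Non-KO blastocysts of each cross were also compared with WT blastocysts. By edgeR 0 of the 9 genes and 0 of all genes (0% of them) were called in both comparisons, and DESeq2 and limma-voom called none of the 9. In the Alyref cross none of the 9 had an unadjusted p under 0.05, and the log2 fold changes ran from -0.69 (Cldn6) to 0.29 (F11r). Cldn6 was lower without overlap there, at 20.4 to 35.0 CPM against 39.7 to 58.7 CPM in WT, as were 6.13% of all genes. In the Gabpb1 cross 1 gene had an unadjusted p under 0.05, Pard6b (0.88, SE 0.38, adjusted p 0.800), and the others ran from -0.39 (Tjp1) to 0.60 (Cldn6). Ocln was higher without overlap in that cross, at 52.1 to 57.9 CPM against 34.2 to 43.4 CPM in WT, as were 6.56% of all genes. For Cldn4 the difference from WT lay between -0.50 and 0.50 in the Alyref cross and between -0.47 and 0.53 in the Gabpb1 cross, taking 2 SE to each side.

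Read embryo by embryo, the 10 morulae differed in how many of the 9 genes lay below the lowest of the 9 blastocysts. The counts were 6 and 7 in the Alyref KO morulae and 6, 8 and 5 in their non-KO counterparts. They were 2, 6 and 5 in the morulae labelled Gabpb1 KO and 0 and 4 in their non-KO counterparts. In the same embryos 24.2% and 24.8%, then 22.9%, 29.1% and 13.5%, then 18.6%, 28.0% and 24.2%, and last 12.2% and 17.6% of all genes lay below every blastocyst.

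Cdh1 and Cldn4 were each below all blastocysts in 8 of the 10 morulae, F11r and Ezr in 7, Cldn6 in 6 and Cldn7 in 5. Pard6b was below in 4, Tjp1 in 3 and Ocln in 1. The Cldn7 morulae below the blastocysts were the 5 of the Alyref cross, KO and non-KO. Cldn4 and F11r lay below all blastocysts in each of the 3 morulae labelled Gabpb1 KO and in neither non-KO morula of the cross. Both genes were also below in each of the 3 Alyref cross non-KO morulae. The share of all genes below in as many morulae was not computed. For Ocln, the tetraspan junction protein, the morulae ran from 12.5 to 84.8 CPM around a median of 39.4 CPM and the blastocysts from 27.9 to 57.9 CPM around 42.9 CPM. For Pard6b the morulae ran from 22.2 to 57.3 CPM (median 35.3) and the blastocysts from 31.2 to 106 CPM (median 37.7).

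**Figure D4:**
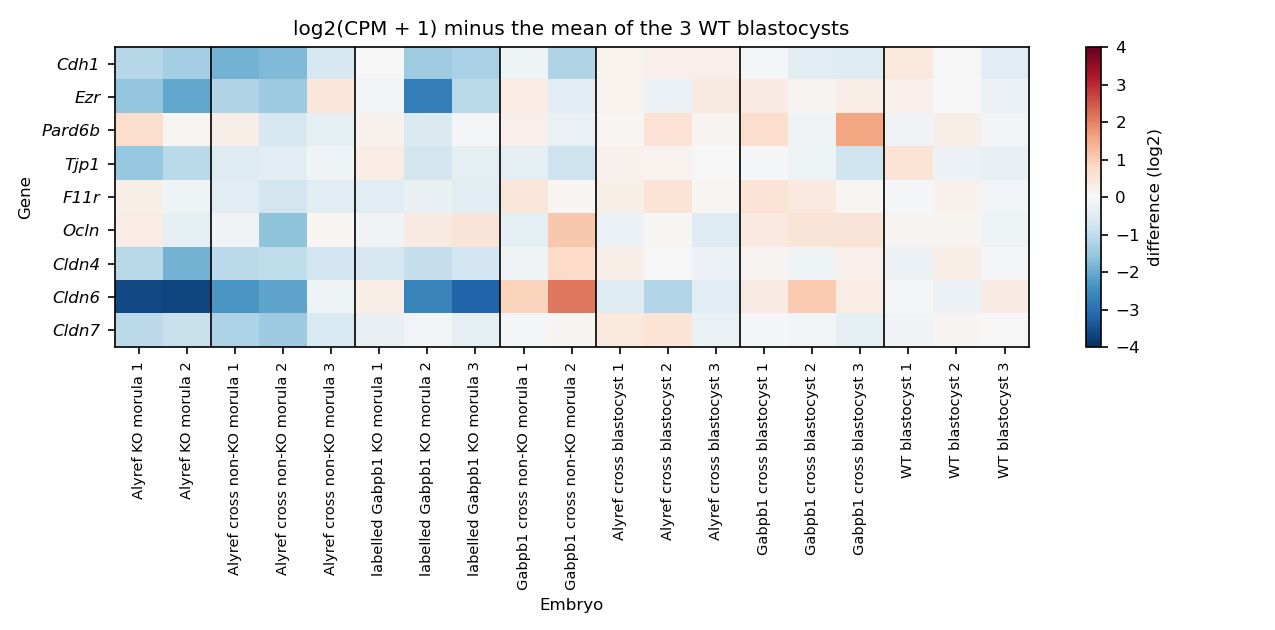
Difference in log2(CPM + 1) from the mean of the 3 WT blastocysts for each gene (rows) in each of the 19 embryos (columns), blue lower and red higher, on a scale from -4 to 4. Cldn6 in both Alyref KO morulae is the darkest blue, and Gabpb1 cross non-KO morula 1 has none of the 9 genes below all 9 blastocysts.

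Among the pairs of the 9 genes, the correlation after removal of group means was highest for Cdh1 and Ezr. For this pair the Pearson correlation of log2(CPM + 1) over the 19 embryos was 0.785, and 0.840 within groups. For Cdh1 and Tjp1 it was 0.707, and 0.749 within groups. For Cldn4 and Cldn6 it was 0.820, and 0.305 within groups, and for Cldn4 and Cldn7 it was 0.753, and 0.285 within groups. The lowest value over the 19 embryos was that of Tjp1 and Ocln, -0.181, and the lowest within groups was that of Tjp1 and Cldn4, -0.306. The points share libraries, stage and group, so these are descriptions.

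**Figure D5:**
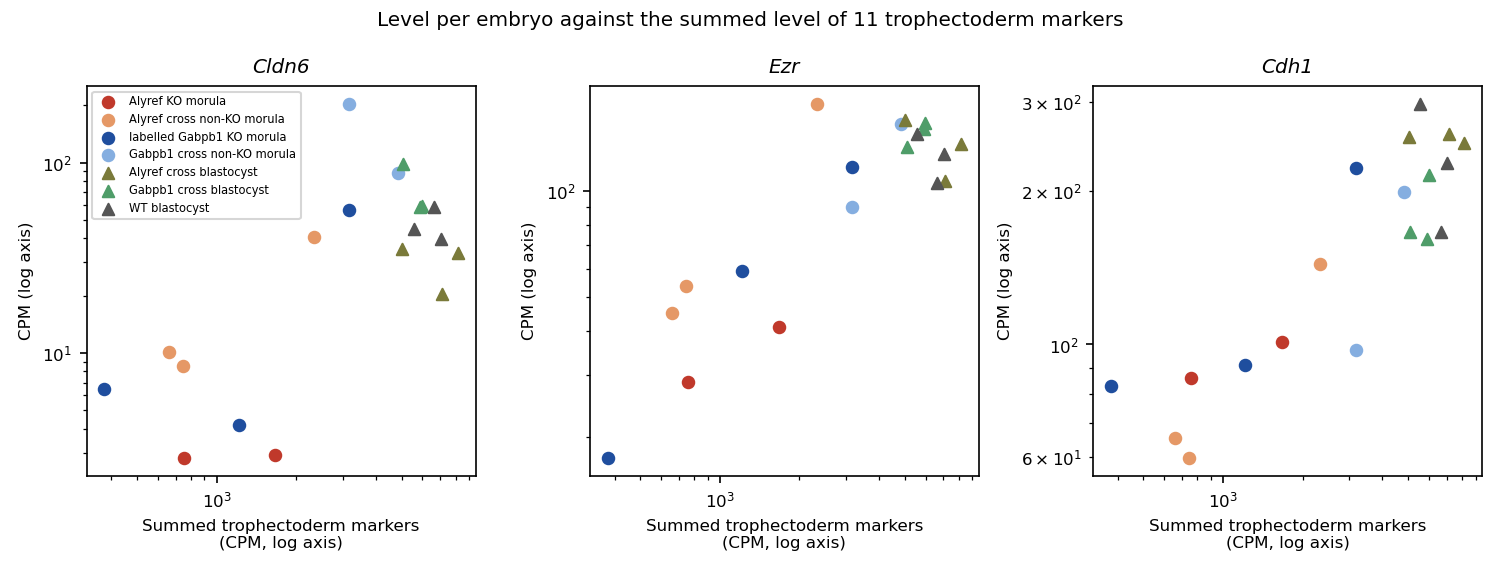
CPM of Cldn6, Ezr and Cdh1 (log y axes) against the summed CPM of 11 trophectoderm markers (log x axis) in each embryo; circles are morulae, triangles are blastocysts and colours are groups. The 9 blastocysts lie to the right, from 5023 to 8161 CPM, and the morulae spread from 376 to 4829 CPM; the 3 genes were picked for this plot after their values had been seen.

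The genes most like each of the 9 were sought among the 9337 tested genes with a mean of at least 10 CPM, by the same correlation over 19 embryos. Closest to Cdh1 were Myh9 (r = 0.966) and Myh10 (0.957), which encode non-muscle myosin heavy chains. Closest to Ezr were Zfp280c (0.929) and Slc25a4 (0.929), to Tjp1 Hnrnpul2 (0.922) and Hnrnpa0 (0.917), and to Pard6b Agfg1 (0.886) and Cep78 (0.831). Among the junction genes, Cldn4 was closest to Etfdh (0.948) and Pisd (0.914), Cldn6 to Cct6b (0.900) and Nt5dc1 (0.889), and Cldn7 to Gm6644 (0.919) and Gm38056 (0.919). Ocln was closest to Tmem135 (0.847) and Fbxo3 (0.840), and F11r to Sept7 (0.826) and Ppp1r7 (0.816).

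Other genes of the same structures were read from lists of 63 symbols, of which 62 were in the table and 50 were tested. In the Alyref KO comparison edgeR called 0 of the 50 and in the Gabpb1 KO comparison 0 of the 50, beside 0.228% and 1.65% of all genes. At an unadjusted p under 0.05 there were 1 higher and 2 lower genes in the first comparison and 2 higher and 4 lower genes in the second; over all genes the shares were 12.1% and 18.9%, both above the share of the list. The tight junction list of 17 held 1 and 3 of the lower genes. Of its 17 genes, 16 had a negative log2 fold change in the morulae labelled Gabpb1 KO, with a median of -0.70 beside 0.06 for all genes. With Alyref KO it was 11 of 17 and a median of -0.23. The non-KO morulae of the Gabpb1 cross, the reference for the KO label, were high for this list. Against the Alyref cross non-KO morulae, 16 of the 17 were higher in them, with a median of 0.95 beside -0.03 for all genes. The part of this in the KO difference was not tested.

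In the Alyref cross, 12 of the 50 were called higher in blastocysts than in non-KO morulae, and none was called lower. Of all genes, 5.62% were called higher and 7.43% lower. By sign alone, 39 of the 50 estimates were higher and 11 lower. In the adherens junction and compaction list 5 of 12 were called higher, with a median of 1.08. Among them were Vcl, which encodes vinculin (2.22, SE 0.59, from 12.5 ± 5.68 to 58.4 ± 2.24 CPM; SD, n = 3), and Ctnna1, which encodes the catenin that links cadherin to actin (0.98, SE 0.23). Lima1, an actin-binding protein, was higher by 2.20 (SE 0.52) and Afdn, the afadin of nectin junctions, by 1.23 (SE 0.33).

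In the polarity list 6 of 21 were called higher in blastocysts of the Alyref cross, with a median of 0.38. They included Slc9a3r1, the scaffold that binds ezrin at the apical membrane (2.21, SE 0.53), and Pard3, a partner of PARD6B (1.38, SE 0.38). Patj, of the Crumbs complex, was higher by 1.76 (SE 0.42) and Llgl2, a basolateral polarity protein, by 1.73 (SE 0.46). The median of the tight junction list was 0.92. Of the 11 trophectoderm markers 3 were called, named here after their values were seen. Krt8 (2.32, SE 0.60) and Krt18 (2.80, SE 0.77) were higher and Tfap2c was lower by 1.19 (SE 0.29) in the same comparison.

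In the Gabpb1 cross the stage comparison by edgeR called 0 of the 50, and 1 polarity gene was higher and 1 tight junction gene lower at an unadjusted p under 0.05, beside 6.72% of all genes in either direction. In the mean of both crosses 2 of the 50 were called higher, Slc9a3r1 (1.63, SE 0.40) and Prkcz, an atypical protein kinase C (0.71, SE 0.18). Of all genes, 1.70% were called higher, and 2 genes are too few to tell the share of the list from that. Comparing non-KO morulae across crosses, 1 of the 50 differed, where 1.85% of all genes did, so this count is at the background. It was Pard3, higher in the Gabpb1 cross (1.88, SE 0.41, edgeR adjusted p 0.0361) and named after its value was seen.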

How the data were processed

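The 9 genes, the gene lists and the tests were chosen with earlier results of these data known. The file the authors deposited is named for FPKM, but it holds whole-number counts per gene for all 19 embryos, so count tests were used. Per the submitters' processing notes Trimmomatic, Trim Galore, cutadapt, STAR, featureCounts and build mm10 were used to make the deposited counts; roles, versions and the strand setting are not given in the sources used here. The 92 spike-in (ERCC) rows were left out of library sizes. Spike-in reads were 0.501% to 1.95% of counts.

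A gene was tested if FPKM, computed from the counts and exon lengths, was at least 1 in at least 2 embryos, which kept 18410 of 39262 genes and all 9 members. edgeR 4.0.16 (R 4.3.3) fitted 7 group means to all 19 embryos with TMM scaling and the quasi-likelihood F test; 10 contrasts were read. P-values were adjusted by Benjamini and Hochberg over all genes tested, and an adjusted p under 0.05 is a call. The SE was taken as the size of a log2 fold change over the root of its F statistic. Coordinates are those of GRCm38. Other analyses used DESeq2 1.42.0, limma-voom with quality weights (limma 3.58.1), RLE size factors, spike-in scaling, no filter, the compared groups alone, a replicate block, and each embryo left out in turn. The edgeR step was tested on simulated counts. No replicate pair agreed within sampling noise. Tjp1 overlaps 3 genes of at most 4 counts and Ezr overlaps Sytl3 by 2 bases. Named genes are all 9 members, at most 4 called genes of each pathway list in a KO or stage comparison, and the 2 genes most like each member. One called gene of the tight junction list is not reported here.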

Additional observations from a re-analysis of the deposited data

Results flagged for a closer look

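F11r stood out because its KO difference ran in opposite directions in the 2 crosses: both Alyref KO morulae were above all non-KO morulae of their cross, and all 3 morulae labelled Gabpb1 KO were below theirs. The difference of the effects was -1.25 on the log2 scale (SE 0.29, edgeR adjusted p 0.0539). The labelled Gabpb1 KO morulae (170, 190 and 170 CPM) stood near the Alyref cross non-KO morulae (173, 139 and 171 CPM). The Gabpb1 cross non-KO morulae were higher, at 322 and 243 CPM. Of all genes, 12.5% were higher without overlap in the Alyref KO comparison and 16.4% lower in the Gabpb1 KO comparison. The share meeting both was not computed. Cldn7 stood out because its difference between blastocysts and non-KO morulae ran in opposite directions. Blastocysts were higher without overlap in the Alyref cross and lower without overlap in the Gabpb1 cross. The crosses differed by -1.56 on the log2 scale (SE 0.33, edgeR adjusted p 0.165). The Gabpb1 cross value alone was -0.22 (SE 0.25), which could not be told from no change. Of all genes, 19.6% were higher without overlap in the Alyref cross and 11.6% lower in the Gabpb1 cross. The share meeting both was not computed.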

How the results depend on the processing

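Of 871 recomputed fold changes, 745 kept direction and side of the threshold and 56 changed sign; the cause was not tested. Depth limits Cldn6, whose lowest library held 22 counts. Changes in how many of the 9 genes were called were as follows. RLE size factors gave 1 in the difference of KO effects, and DESeq2 gave 2 in the Gabpb1 KO comparison, 1 in the difference of KO effects, 3 in the mean stage comparison and 2 in the stage difference. Between non-KO morulae both gave 3, with F11r added. Spike-in scaling and the compared groups alone each gave 0 in the Gabpb1 KO comparison, the Alyref stage comparison and, for the groups alone, the non-KO morulae, where spike-in scaling also gave 0. Limma-voom gave 7 in the Alyref stage comparison, 3 in the mean, 3 in the stage difference and 4 between non-KO morulae. Leaving out 1 embryo gave 0 to 2 calls in the Gabpb1 KO comparison, 0 to 1 in the difference of KO effects, 1 to 4 in the Alyref stage comparison, 0 to 3 in the mean, 0 to 1 in the stage difference and 0 to 4 between non-KO morulae.

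Spike-in scaling moved the median of all genes to -0.40 in the Gabpb1 KO comparison, and to -0.34, -0.86 and -0.61 in the stage comparisons of the Alyref cross, the Gabpb1 cross and their mean. It changed the sign of Cdh1 (-0.14) and Cldn7 (-0.071) in the Alyref KO comparison, and of Cldn6 (-0.015), Ocln (-0.36) and Ezr (-0.030) in the Alyref stage comparison. In the Gabpb1 stage comparison it changed Cdh1 (-0.56), Tjp1 (-0.55), F11r (-0.77), Pard6b (-0.064) and Ezr (-0.63). In the mean it changed Tjp1 (-0.21), Cldn4 (-0.30), Cldn7 (-0.093), Ocln (-0.65), F11r (-0.15) and Ezr (-0.33). Calls over all genes split 31 higher to 321 lower with spike-in scaling against 1035 to 1367 in the Alyref stage comparison, 16 to 1204 against 313 to 490 in the mean, 0 to 26 against 64 to 239 in the Gabpb1 KO comparison and 0 to 10 against 66 to 101 in the difference of KO effects.

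Limma-voom changed the sign of Ocln in the Gabpb1 KO (0.013) and Gabpb1 stage (0.11) comparisons, of Cldn6 (-2.22) and Ezr (-0.40) in the difference of KO effects, and of Cldn6 in the mean stage comparison (0.20). Leaving out 1 embryo changed signs within these ranges: Cdh1 from -0.18 to 0.58 and Cldn7 from -0.086 to 0.37 (Alyref KO); Cdh1 from -0.77 to 0.44, Ocln from -0.81 to 0.68 and Pard6b from -0.32 to 0.18 (Gabpb1 KO). In the difference of KO effects Cdh1 ran from -0.83 to 0.38, Cldn6 from -1.98 to 0.83, Ezr from -0.42 to 0.92 and Ocln from -1.22 to 0.27. In the stage comparisons Ocln ran from -0.18 to 0.49 (Alyref), and Cdh1 from -0.14 to 0.89, Cldn4 from -0.73 to 0.20, Ezr from -0.087 to 0.70, F11r from -0.12 to 0.29 and Ocln from -0.61 to 0.88 (Gabpb1). In the mean Cldn6 ran from -0.46 to 0.32 and Ocln from -0.22 to 0.53.

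The replicate block gave 0 calls in the Gabpb1 KO comparison and 1 between non-KO morulae, and changed the sign of Cldn6 (-0.28) and Ezr (-0.010) in the difference of KO effects. Embryos of the same number showed no clear likeness. Of 52 same-number pairs, 10 had a correlation of deviations over 0.1 (range -0.20 to 0.26). In the 3 comparisons of 3 pairs, 0, 1 and 2 of 6 embryos correlated best with their own number. Neither KO comparison was among these. Deviations from means of 2 or 3 embryos are too few for this check to exclude pairing.

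Counts over all genes moved by more than 1.5 times. Over the other analyses and the single omissions they ran from 0 to 841 against 42 (Alyref KO), 0 to 1284 against 303 (Gabpb1 KO), 0 to 894 against 167 (difference of KO effects), 24 to 7262 against 2402 (Alyref stage), 0 to 57 against 0 (Gabpb1 stage), 2 to 4324 against 803 (mean), 0 to 1137 against 1 (stage difference) and 0 to 2711 against 341 (non-KO morulae). Against WT blastocysts they ran from 0 to 41 (Alyref cross) and 0 to 42 (Gabpb1 cross) against 0. The fold changes of the stage difference, the non-KO morulae and the WT comparisons were added to these recomputations after seeing the data.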
